A study of Homo sapiens with 9 samples.

Results

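Hepatocyte identity genes were examined in the human HCC line MHCC97L and in its drug-resistant derivatives. The genes were chosen by name as secreted plasma proteins, liver transcription factors, surface proteins and metabolic enzymes, and all 43 were found among the 20030 genes of the deposited table. Hepatocytes make most proteins of blood plasma, export lipoproteins and turn ammonia into urea. A network of liver-enriched transcription factors, among them HNF4A, the FOXA proteins, C/EBP alpha and several nuclear receptors, keeps these genes active in the normal liver. HCC cells retain this programme to very different degrees, and alpha fetoprotein (AFP) and glypican 3 (GPC3) are clinical markers of many liver tumors.

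RNA of wild-type MHCC97L, which is described as having high metastatic potential, of MHCC97L-Src and of MHCC97L-Oxa was deposited as 9 libraries, 3 from each line, all grown in DMEM with serum. MHCC97L-Src had been selected with the Src inhibitor saracatinib until resistant to 4 μmol/L, and MHCC97L-Oxa with the platinum drug oxaliplatin until resistant to 2 μmol/L. The labels give the treatment as none, saracatinib or oxaliplatin. The study does not state whether drug was present when RNA was taken, so drug exposure and acquired resistance cannot be told apart. Each resistant line is 1 selected derivative of the same parental line, and the study describes its comparison of MHCC97L with MHCC97L-Src as separate experiments, but the labels do not say whether the 3 libraries of a line came from separate cultures, so p-values measure the spread between these libraries only. Both resistant lines were compared with the same 3 MHCC97L libraries, so these comparisons are not independent of each other.

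A library held 16970486 to 18209213 counted reads. Throughout, 3 counts, equal to 0.165 to 0.177 CPM (counts relative to the library total), were taken as the smallest detectable amount, and this limit covers counting error only. MHCC97L replicate 1 stood apart from the other libraries. Across genes, its deviation from the mean of all libraries had a Spearman's rho of -0.781 with the GC content of the transcript. The rho was 0.299 and -0.255 in MHCC97L replicates 2 and 3, 0.187 to 0.699 in MHCC97L-Src and 0.166 to 0.309 in MHCC97L-Oxa. It was thus positive in every resistant library. The mean of all libraries includes MHCC97L replicate 1, whose negative relation can push the other values up. The signs alone therefore cannot show whether a relation to GC content extended beyond that library. The fold changes of the tested hepatocyte genes against MHCC97L are given with and without MHCC97L replicate 1. The part of GC content in the differences between the lines was not tested beyond the correction described with each value.

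The promoters of 5 of these genes are shown because the results turn on them. ALB, the gene of serum albumin, stands for the silent plasma protein genes, and CPS1 and ASS1 held nearly all reads of the 43 genes. SERPINA1 and AMBP each passed an adjusted p under 0.05 by edgeR in a single comparison. These calls rested on low counts and were lost in some fits that left out a library. RefSeq windows of 300 bases, from 250 bases before to 50 bases after the annotated start on GRCh38.p14, are written 5′ to 3′ with CpG dinucleotides in capitals. They lie at chr4:73404037-73404336 on the + strand (ALB), chr14:94390586-94390885 on the - strand (SERPINA1), chr9:114078251-114078550 on the - strand (AMBP), chr2:210593105-210593404 on the + strand (CPS1) and chr9:130444457-130444756 on the + strand (ASS1).
ALB: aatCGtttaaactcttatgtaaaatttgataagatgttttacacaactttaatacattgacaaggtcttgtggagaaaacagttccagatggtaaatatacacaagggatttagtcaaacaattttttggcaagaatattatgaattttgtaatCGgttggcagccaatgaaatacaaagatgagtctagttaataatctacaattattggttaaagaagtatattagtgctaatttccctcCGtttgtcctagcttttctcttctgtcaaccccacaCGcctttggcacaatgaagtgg
SERPINA1: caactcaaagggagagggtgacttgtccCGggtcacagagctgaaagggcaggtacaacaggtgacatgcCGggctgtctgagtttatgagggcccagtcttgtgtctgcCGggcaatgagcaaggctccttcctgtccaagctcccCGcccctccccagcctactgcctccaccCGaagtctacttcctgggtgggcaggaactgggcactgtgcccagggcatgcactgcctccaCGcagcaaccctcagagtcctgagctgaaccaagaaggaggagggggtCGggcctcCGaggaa
AMBP: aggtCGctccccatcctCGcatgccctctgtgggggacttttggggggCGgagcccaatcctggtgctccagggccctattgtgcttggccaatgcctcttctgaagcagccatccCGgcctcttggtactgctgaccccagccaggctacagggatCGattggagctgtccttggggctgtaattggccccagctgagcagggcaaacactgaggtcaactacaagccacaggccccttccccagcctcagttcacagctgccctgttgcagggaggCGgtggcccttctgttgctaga
CPS1: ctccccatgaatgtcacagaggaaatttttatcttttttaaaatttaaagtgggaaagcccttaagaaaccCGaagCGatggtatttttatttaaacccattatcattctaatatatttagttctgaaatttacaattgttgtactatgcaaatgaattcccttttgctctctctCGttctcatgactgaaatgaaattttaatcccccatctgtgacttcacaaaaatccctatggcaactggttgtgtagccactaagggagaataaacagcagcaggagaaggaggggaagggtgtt
ASS1: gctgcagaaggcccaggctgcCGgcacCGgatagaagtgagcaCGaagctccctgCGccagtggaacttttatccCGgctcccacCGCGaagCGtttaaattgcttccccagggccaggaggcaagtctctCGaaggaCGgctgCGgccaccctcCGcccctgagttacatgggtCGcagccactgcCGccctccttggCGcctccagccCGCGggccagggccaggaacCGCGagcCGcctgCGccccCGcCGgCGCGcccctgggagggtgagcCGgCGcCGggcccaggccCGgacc

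The ALB window held 4 CpG, the CPS1 window 3, the AMBP window 6, the SERPINA1 window 8 and the ASS1 window 29. A window was matched for 29 of the 43 genes, and 1 window per gene was kept, so any other annotated starts were not examined. The 15 windows of genes with at most 3 counts in every library held 0 to 7 CpG with a median of 3, below the median of 14 over all 35093 windows. The 8 windows of genes that were detected at a few counts held a median of 10.5 CpG, and 3 of them, those of TF, FOXA3 and ONECUT1, held 36, 37 and 39. The 6 windows of genes with enough counts for a test held a median of 18.5 CpG, from 3 in CPS1 to 50 in CEBPA. CPS1 with 3 CpG reached 9893 counts, and ONECUT1 with 39 CpG did not exceed 5. The CPS1 and ALB windows lie inside the spans that GENCODE release 29 gives these genes, which start at positions 210477682 and 73397114. The ASS1 window ends before the GENCODE start of that gene at 130444929. Where the reads of a gene start was not measured. These values describe the windows, and methylation was not measured. Exact matches to consensus motifs of the liver factors were searched on both strands. The FOXA motif TGTTTAC was found in 1 of the 29 windows, that of APOA2, and in 3.42% of all windows. The HNF4 motif (a direct repeat of AGGTCA with 1 base between) and the C/EBP motif TTGCGCAA were found in none of the 29, against 0.0228% and 0.151% of all windows. The absence of a match says only that these letters are not in the window.

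**Figure D1:**
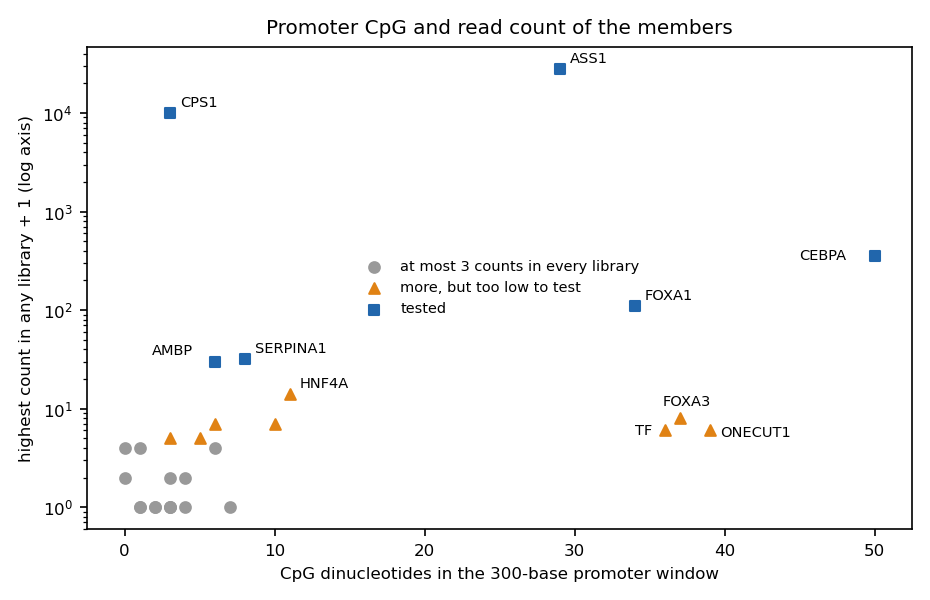
CpG dinucleotides in the promoter window (x axis) against the highest count in any library plus 1 (log y axis) for the 29 genes with a window, 1 point per gene. The silent genes (grey) lie at 7 CpG or fewer, and both highly counted genes, CPS1 and ASS1, lie at 3 and 29 CpG.

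Most of these genes were silent in MHCC97L and in both resistant lines. Of the 43 genes, 25 had at most 3 counts in every library and are called silent here, and 15 of these had no read in any of the 9 libraries. The silent share was 58.1% of these genes and 30.7% of all 20030 genes. A further 11 genes passed 3 counts in at least 1 library but were too low for a test, and 7 were tested in at least 1 comparison. In bulk RNA, fewer expressing cells and less RNA per expressing cell cannot be told apart.

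Among the carrier proteins of plasma, ALB, AFP, transthyretin (TTR), haptoglobin (HP) and fetuin A (AHSG) had 0 counts in all 9 libraries, which allows at most 0.177 CPM in any library. GPC3, the other tumor marker, had 1 count in MHCC97L replicate 1 and 0 elsewhere. The line is labelled as HCC, and these defining markers of hepatocytes and of liver tumors were absent from all its libraries or at 1 read. Transferrin (TF), the iron carrier, had 5 counts in MHCC97L-Src replicate 1, 1 in MHCC97L-Oxa replicate 2 and 0 elsewhere. Hemopexin (HPX), the heme carrier, ranged from 0 to 4 counts. GENCODE release 29 places TXNL4B across the whole of HP on the opposite strand, and HP still had no read.

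The lipoprotein genes were near 0. APOB, the structural protein of very low density lipoprotein, had no read, APOC3 and APOH reached 1 count in 1 library each, and APOA2 had 1 count in MHCC97L replicate 1 and 3 in MHCC97L-Oxa replicate 2. APOA1, the main protein of high density lipoprotein, had 1 count in each MHCC97L library, 0, 4 and 0 in those of MHCC97L-Src and 3, 0 and 3 in those of MHCC97L-Oxa. FABP1, the fatty acid binding protein of liver, had no read.

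Of the coagulation genes, fibrinogen was silent in all its chains, with 0 counts of FGA and at most 1 count of FGB and FGG in any library. Factor VII (F7) and antithrombin (SERPINC1) did not exceed 3 counts. Prothrombin (F2) had 1, 3 and 6 counts in the MHCC97L libraries, 0, 0 and 0 in those of MHCC97L-Src and 2, 6 and 2 in those of MHCC97L-Oxa. Factor X (F10) ranged from 0 to 6 counts, with the lines overlapping. F2 was too low for a test, so its absence in MHCC97L-Src is given as a count only.

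Among the 12 transcription factors, only CEBPA and FOXA1 were above 13 counts in any library. FOXA2, PROX1, the bile acid receptor NR1H4 and the xenobiotic receptor NR1I3 had no read, and NR5A2 did not exceed 3 counts. HNF4A, a central regulator of hepatocyte genes, had 2, 8 and 5 counts in the MHCC97L libraries, 7, 4 and 10 in those of MHCC97L-Src and 5, 13 and 6 in those of MHCC97L-Oxa. The lines overlapped, and HNF4A stood at 0.0138 to 0.0701 FPKM (fragments per length of transcript and library size), the 32.8 to 38.9 percentile of the genes of a library. FOXA3 had 1 to 7 counts and ONECUT1 1 to 5 counts in every library. The corepressor NR0B2 reached 4 counts in MHCC97L-Src replicate 3, and the pregnane X receptor NR1I2 reached 4 counts in MHCC97L-Oxa replicate 1, while the other libraries had 0 or 1.

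At the cell surface and among the enzymes, ASGR2, ARG1 and OTC had no read. ASGR2 encodes a subunit of the asialoglycoprotein receptor, while OTC and ARG1 encode urea cycle enzymes. PCK1, the cytosolic enzyme of gluconeogenesis, had 3 counts in MHCC97L-Src replicate 3 and 0 elsewhere. Tyrosine aminotransferase (TAT) had 6 counts in MHCC97L-Src replicate 1 and 0 in the other libraries. None of the 25 silent genes had a read in all 3 libraries of any line.

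**Figure D2:**
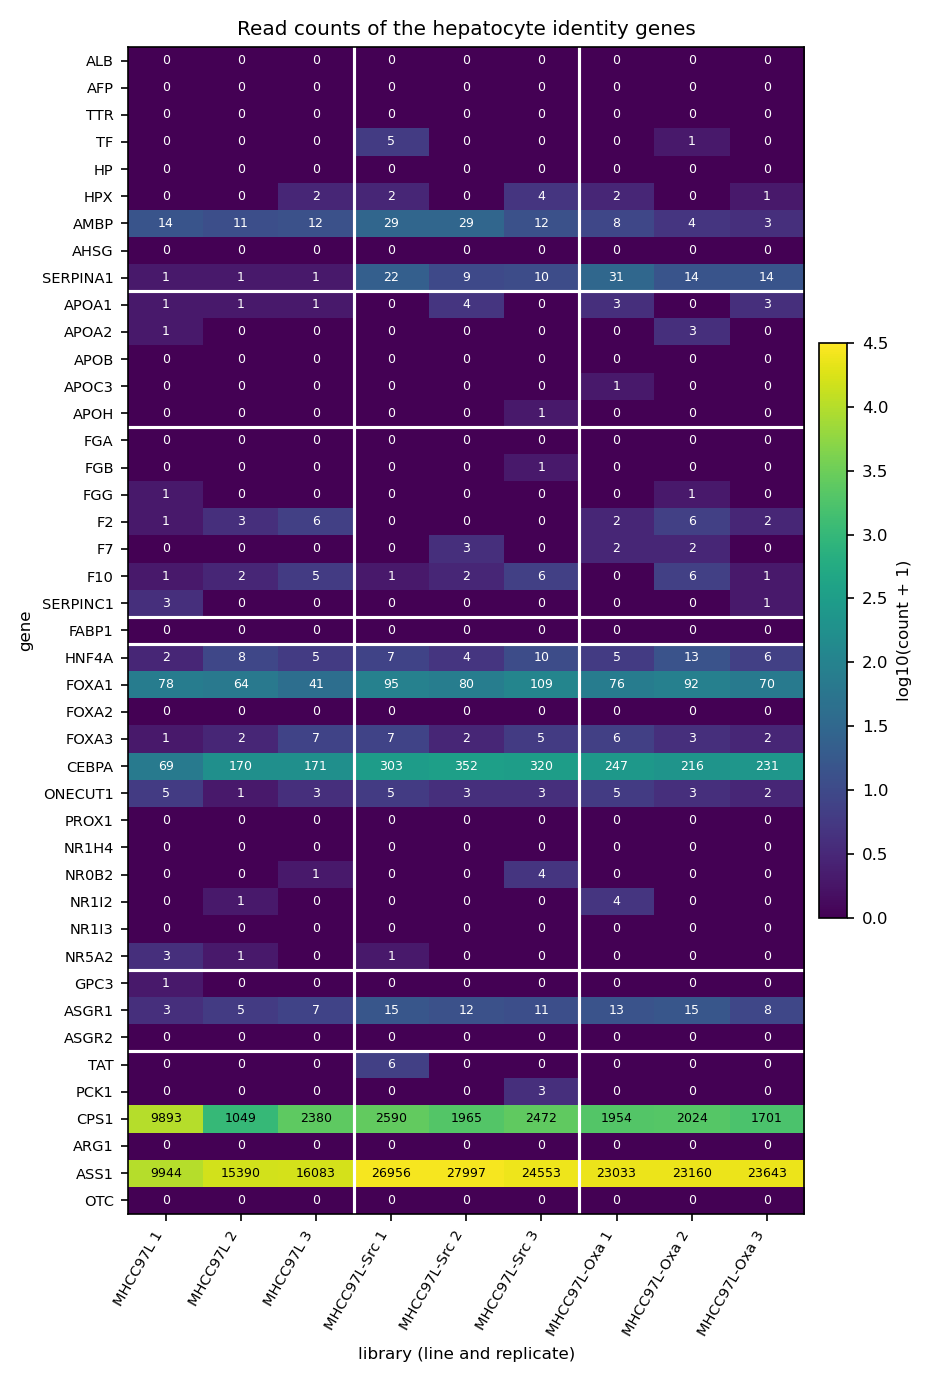
Read counts of the 43 genes (rows, separated by role) in the 9 libraries (columns), with the count printed in each cell and the color giving log10(count + 1). Counts above 352 occur only for CPS1 and ASS1, and 15 genes are at 0 in all libraries.

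The reads that these genes did have came almost entirely from the urea cycle. The 43 genes took 0.0941% to 0.1795% of the counts of a library, and CPS1 and ASS1 together made up 98.2% to 99.1% of this. The other 41 genes shared 185 to 500 counts per library. ASS1 made up 49.7% of the members' counts in MHCC97L replicate 1 and 85.9% to 92.1% in the other 8 libraries.

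ASS1 encodes argininosuccinate synthase, which joins citrulline and aspartate and is also used outside the liver to make arginine. GENCODE release 29 places it at chr9:130444929-130501274 on the + strand of GRCh38. It lists 11 pseudogenes named after it on 9 chromosomes, and reads shared with these copies could have been split in the counting. ASS1 had 9944, 15390 and 16083 counts in the MHCC97L libraries, 26956, 27997 and 24553 in those of MHCC97L-Src and 23033, 23160 and 23643 in those of MHCC97L-Oxa. Per length it stood at 237 ± 53.7 FPKM (mean ± SD, n = 3) in the parental line, 467 ± 34.8 in MHCC97L-Src and 403 ± 11.99 in MHCC97L-Oxa. It was at or above the 98.6 percentile of FPKM in every library. Every resistant library was above every MHCC97L library, and MHCC97L replicate 1 was the lowest of all.

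CPS1, at chr2:210477682-210679107 on the + strand, encodes the mitochondrial carbamoyl-phosphate synthase that commits ammonia to the urea cycle. CPS1 had 9893, 1049 and 2380 counts in the MHCC97L libraries, 2590, 1965 and 2472 in those of MHCC97L-Src and 1954, 2024 and 1701 in those of MHCC97L-Oxa. On the FPKM scale MHCC97L replicate 1 was at 67.8, replicate 2 at 7.50 and replicate 3 at 16.7, so the MHCC97L libraries spanned the whole range of the other lines. MHCC97L-Src stood at 16.8 ± 2.09 FPKM (n = 3) and MHCC97L-Oxa at 12.98 ± 1.26. CPS1 was highest and ASS1 lowest in the same library, MHCC97L replicate 1. The GC content of their longest transcripts is 43.8% for CPS1 and 57.4% for ASS1, and the rho of this library with GC content was -0.781.

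CEBPA, at chr19:33299934-33302564 on the - strand, encodes C/EBP alpha, a factor that restrains proliferation and activates metabolic genes in hepatocytes. CEBPA had 69, 170 and 171 counts in the MHCC97L libraries, 303, 352 and 320 in those of MHCC97L-Src and 247, 216 and 231 in those of MHCC97L-Oxa. It stood at 3.50 ± 1.43 FPKM (n = 3) in the parental line, 8.49 ± 0.739 in MHCC97L-Src and 5.94 ± 0.405 in MHCC97L-Oxa, and the lines did not overlap. A pair of antisense transcripts overlaps the gene in GENCODE release 29, and whether the counting used strand is not given in the sources used here. FOXA1, at chr14:37589984-37596059 on the - strand, encodes a pioneer factor that opens chromatin at liver and other epithelial genes. FOXA1 had 78, 64 and 41 counts in the MHCC97L libraries, 95, 80 and 109 in those of MHCC97L-Src and 76, 92 and 70 in those of MHCC97L-Oxa. Its MHCC97L-Oxa range overlapped the other lines, and its mean level was 0.798 to 1.23 FPKM.

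AMBP, at chr9:114060127-114078472 on the - strand, encodes a precursor that is cut into alpha-1-microglobulin and the protease inhibitor bikunin. AMBP had 14, 11 and 12 counts in the MHCC97L libraries, 29, 29 and 12 in those of MHCC97L-Src and 8, 4 and 3 in those of MHCC97L-Oxa. All 3 MHCC97L-Oxa libraries were below all others, while MHCC97L-Src replicate 3 lay within the MHCC97L range. SERPINA1, at chr14:94376747-94390693 on the - strand, encodes alpha-1-antitrypsin, the main inhibitor of neutrophil elastase in plasma. SERPINA1 had 1 count in each MHCC97L library, 22, 9 and 10 counts in those of MHCC97L-Src and 31, 14 and 14 in those of MHCC97L-Oxa. It was low in every library, at up to 0.224 FPKM, but all 6 libraries of the resistant lines were above MHCC97L. ASGR1, at chr17:7173431-7179564 on the - strand, encodes the major subunit of the asialoglycoprotein receptor, which clears desialylated plasma proteins. ASGR1 had 3, 5 and 7 counts in the MHCC97L libraries, 15, 12 and 11 in those of MHCC97L-Src and 13, 15 and 8 in those of MHCC97L-Oxa.

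**Figure D3:**
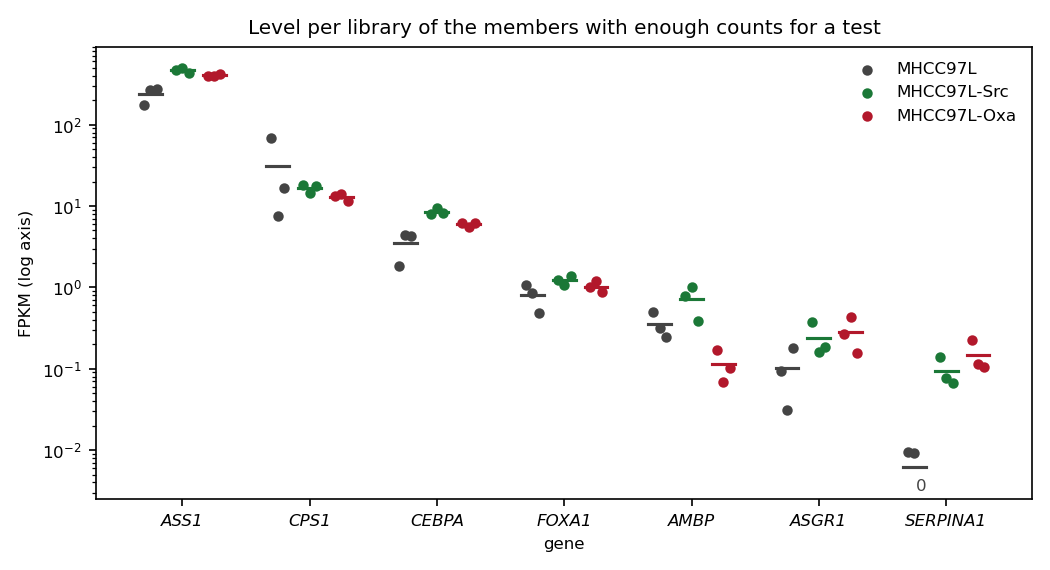
FPKM (log y axis) of the 7 genes with enough counts for a test, 1 point per library colored by line, with a bar at the mean of each line and 0 printed where a library is listed at 0. ASS1 is at 175.6 FPKM or more in every library, CPS1 spreads from 7.50 to 67.8 FPKM within MHCC97L, and SERPINA1 is below 0.01 FPKM in MHCC97L.

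The first comparison asked whether resistance to saracatinib went with a change of the hepatocyte genes. MHCC97L-Src was tested against MHCC97L on 12037 genes, which included 6 of the 43. None of the 6 passed an adjusted p under 0.05 by edgeR's quasi-likelihood test, while 2.13% of all tested genes did. By the unadjusted threshold (p under 0.05, log2 fold change beyond 1 in either direction) 3 passed, all higher in MHCC97L-Src, against 24.6% of all tested genes. ASGR1, 1 of these 3, had passed the filter on low counts only through MHCC97L-Src, where it was higher. DESeq2 called 2 of the 6, ASS1 and CEBPA, at an adjusted p under 0.05, against 17.6% of all tested genes. The median log2 fold change was 1.05 over the 6 genes, 5 of them positive, and -0.16 over all tested genes.

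In CPM (mean ± SD over 3 libraries), ASS1 was at 1534 ± 128 in MHCC97L-Src and 775 ± 184 in MHCC97L, a log2 fold change of 1.05 ± 0.29 (SE, adjusted p = 0.094). Without MHCC97L replicate 1 it was 0.86 (adjusted p = 0.024), and with a correction for GC content and transcript length it was 0.48 (adjusted p = 0.068). CEBPA was at 18.8 ± 1.71 and 7.67 ± 3.25 CPM, a log2 fold change of 1.35 ± 0.47 (adjusted p = 0.121). ASGR1 was at 0.733 ± 0.122 and 0.280 ± 0.110 CPM, a log2 fold change of 1.43 ± 0.52 (adjusted p = 0.129). In CPM all 3 genes were higher in each MHCC97L-Src library than in any MHCC97L library. AMBP had a log2 fold change of 1.06 ± 0.52 (adjusted p = 0.203) and FOXA1 of 0.74 ± 0.43 (adjusted p = 0.261). Without MHCC97L replicate 1, CEBPA was at 1.04 (adjusted p = 0.0753), ASGR1 at 1.17 (adjusted p = 0.266), AMBP at 1.14 (adjusted p = 0.294) and FOXA1 at 0.93 (adjusted p = 0.222). With the correction the values of CEBPA, ASGR1, AMBP and FOXA1 were 0.80, 0.88, 0.32 and 0.49. CPS1 had a log2 fold change of -0.76 ± 0.64 (adjusted p = 0.434), and its sign turned to 0.57 without MHCC97L replicate 1 and to 0.21 with the correction.

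SERPINA1 was left out of this test by the filter on low counts. Its 41 counts in MHCC97L-Src against 3 in MHCC97L give a ratio of 14.1 relative to the library totals, with an exact 95% counting interval of 4.49 to 71.0. The interval pools the reads of each line and leaves out the spread between libraries. Fitted without the filter, the log2 fold change of SERPINA1 was 3.74 (adjusted p = 0.037).

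The second comparison asked the same of oxaliplatin resistance. MHCC97L-Oxa was tested against MHCC97L on 12064 genes, again with 6 of the 43, and 1 of them, SERPINA1, passed an adjusted p under 0.05, against 0.953% of all tested genes. By the unadjusted threshold 2 passed, SERPINA1 higher and AMBP lower, against 16.2% of all tested genes. AMBP had passed the filter only through MHCC97L, where it was higher. The median log2 fold change was 0.56 over the 6 genes and -0.19 over all tested genes.

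SERPINA1 rose to 1.09 ± 0.530 CPM in MHCC97L-Oxa from 0.0562 ± 0.001 CPM in MHCC97L (adjusted p = 0.032). The ratio of 59 to 3 counts was 19.5 relative to the library totals, with an exact 95% counting interval of 6.35 to 97.2. This interval too leaves out the spread between libraries. The fitted log2 fold change of 4.14 ± 0.64 (SE) depends on the prior count, since MHCC97L had 1 read per library, and the gene passed the filter only through the line in which it was higher. The call was lost when any of 4 of the 6 libraries was left out, namely MHCC97L replicate 3 and each MHCC97L-Oxa replicate, with adjusted p = 0.152 to 0.207. It was lost on the FPKM values too (adjusted p = 0.220 and 0.0701). DESeq2 called SERPINA1 and no other of the 6, against 7.4% of all tested genes. Without MHCC97L replicate 1 the call was kept, at 4.17 (adjusted p = 0.016), as it was with the correction, at 3.89 (adjusted p = 0.011). AMBP was at 0.277 ± 0.143 CPM in MHCC97L-Oxa and 0.693 ± 0.089 CPM in MHCC97L, a log2 fold change of -1.28 ± 0.50 (adjusted p = 0.209). It was -1.14 without MHCC97L replicate 1 (adjusted p = 0.220) and -1.83 with the correction (adjusted p = 0.0777). ASS1 was at 1296 ± 33.0 CPM in MHCC97L-Oxa, a log2 fold change of 0.74 ± 0.26 (adjusted p = 0.196). Without MHCC97L replicate 1 the fold change of ASS1 was 0.61 (adjusted p = 0.0028), and without MHCC97L replicate 2 it was 0.94 (adjusted p = 0.047). With the correction it was 0.30 (adjusted p = 0.0976). CEBPA and FOXA1 had log2 fold changes of 0.74 ± 0.45 (adjusted p = 0.321) and 0.38 ± 0.40 (adjusted p = 0.544). Without MHCC97L replicate 1 they were at 0.49 (adjusted p = 0.124) and 0.63 (adjusted p = 0.244), and with the correction at 0.33 and 0.15. CPS1 had a log2 fold change of -1.17 ± 0.66 (adjusted p = 0.288), which was 0.20 without MHCC97L replicate 1, -1.54 without MHCC97L replicate 2 (adjusted p = 0.034) and -0.36 with the correction. ASGR1 was left out by the filter on low counts, and without the filter its log2 fold change was 1.29 ± 0.67 (adjusted p = 0.288).

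The third comparison set both resistant lines against each other, without the MHCC97L libraries. Of 11994 tested genes 4.64% passed an adjusted p under 0.05, and of the 43 genes 7 were tested and 1, AMBP, passed. AMBP was also the 1 gene of the 7 that passed the unadjusted threshold, against 4.01% of all tested genes. It had passed the filter only through MHCC97L-Src, where it was higher. The median log2 fold change was 0.36 over the 7 genes and -0.02 over all tested genes.

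AMBP was higher in MHCC97L-Src, at 1.35 ± 0.583 CPM against 0.277 ± 0.143 CPM in MHCC97L-Oxa, which gave a log2 ratio of 2.32 ± 0.56 (SE, adjusted p = 0.044), and of 2.12 with the correction (adjusted p = 0.038). The call was lost when MHCC97L-Src replicate 1 or 2 or any MHCC97L-Oxa replicate was left out, with log2 fold changes of 2.06 to 2.81 and adjusted p = 0.063 to 0.212. Of the 6 fits without a library, the call was kept in the fit without MHCC97L-Src replicate 3 (adjusted p = 0.0048). CPS1 had a log2 fold change of 0.41 ± 0.12 (adjusted p = 0.082) and of 0.54 with the correction (adjusted p = 0.016). CEBPA had one of 0.61 ± 0.18 (adjusted p = 0.092), and DESeq2 called it (adjusted p = 0.039) and AMBP, 2 of the 7, against 7% of all tested genes. ASS1 had a log2 fold change of 0.30 ± 0.12 (adjusted p = 0.195), FOXA1 of 0.36 ± 0.22 (adjusted p = 0.407), ASGR1 of 0.19 ± 0.42 (adjusted p = 0.848) and SERPINA1 of -0.42 ± 0.49 (adjusted p = 0.686). With the correction CEBPA was at 0.41 (adjusted p = 0.152) and ASS1 at 0.13 (adjusted p = 0.445). FOXA1, ASGR1 and SERPINA1 were then at 0.29, 0.0014 and -0.52. A p that misses the threshold does not show that SERPINA1 or ASGR1 had the same level in both resistant lines.

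**Figure D4:**
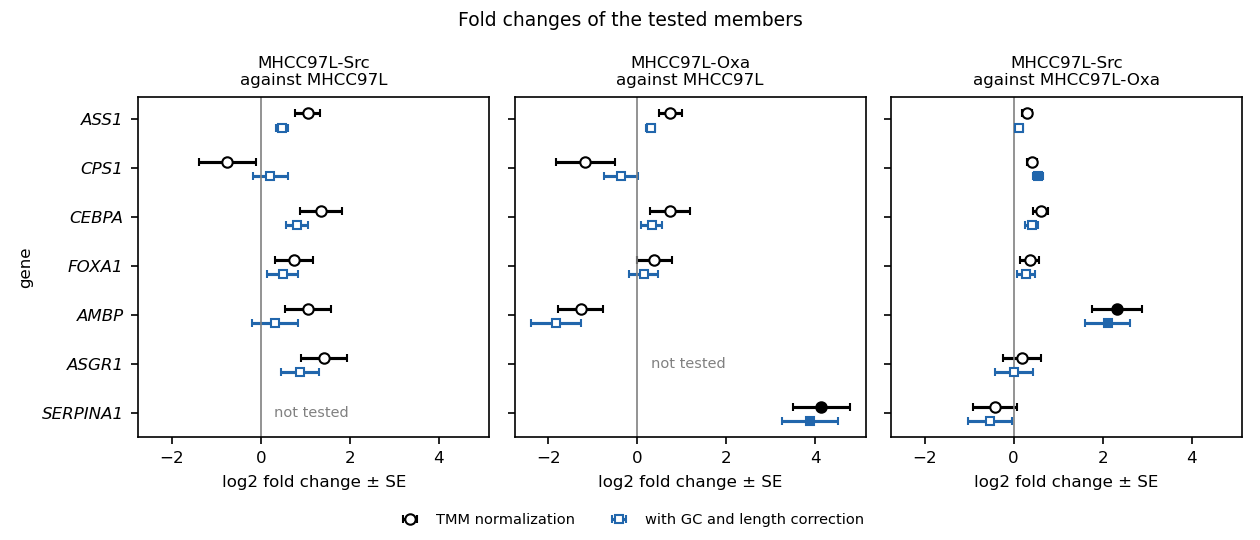
Log2 fold change ± SE (x axis) of the 7 tested genes in the 3 comparisons, by edgeR with TMM normalization (circles) and with a correction for GC content and transcript length (squares), filled where the adjusted p is under 0.05. SERPINA1 is filled in the comparison of MHCC97L-Oxa with MHCC97L and AMBP in that of MHCC97L-Src with MHCC97L-Oxa, while CPS1 crosses 0 with the correction in the first panel.

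The wider hepatocyte programme was read from 8 lists of 134 further genes. Of these, 60 were silent by the same limit (44.8%), and 40 had no read in any library. The silent genes were 18 of 32 plasma proteins, 8 of 14 coagulation genes, 7 of 12 apolipoprotein and lipid transport genes, 8 of 11 genes of bile acid synthesis and transport, 10 of 20 enzymes of gluconeogenesis and amino acid breakdown, 5 of 18 complement genes, 4 of 18 transcription factors and 0 of 9 genes of the urea cycle and nitrogen handling. Some silent members had a relative that was expressed. ARG2, the mitochondrial arginase, stood at 0.753 to 8.35 FPKM while ARG1 had no read, and PCK2, the mitochondrial partner of PCK1, stood at 6.14 to 28.9 FPKM. ASL, the enzyme after ASS1 in the urea cycle, stood at 7.92 to 15.1 FPKM, and NAGS, which makes the activator of CPS1, at 0.433 to 2.75 FPKM. The complement protein C3 and the acute-phase factor CEBPB were high, at 124 to 284 and 116 to 326 FPKM. NAGS was picked for mention after its values were seen.

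Of the 134 genes, 46 were tested in MHCC97L-Src against MHCC97L, and 3 rose and 1 fell at an adjusted p under 0.05, against 2.13% of all tested genes. ITIH4, a plasma protease substrate of the inter-alpha-trypsin inhibitor family, rose with a log2 fold change of 1.79 ± 0.30 (adjusted p = 0.023). The glucose-responsive factor MLXIPL rose by 1.72 ± 0.30 on the log2 scale (adjusted p = 0.025) and ARG2 by 2.34 ± 0.49 (adjusted p = 0.0496). CREB3L3, a hepatic factor of lipid metabolism, fell by 2.799 on the log2 scale (SE 0.56, adjusted p = 0.044). Its 10, 8 and 27 counts in the MHCC97L-Src libraries would not have passed the filter on low counts without MHCC97L, where it was higher. In MHCC97L-Oxa against MHCC97L, 49 were tested and 2 rose, against 0.953% of all tested genes, ITIH4 by 1.75 ± 0.26 (adjusted p = 0.031) and the complement factor CFB by 1.39 ± 0.24 (adjusted p = 0.043) on the log2 scale. In MHCC97L-Src against MHCC97L-Oxa, 51 were tested, and 4 were higher and 5 lower, against 4.64% of all tested genes. All 4 calls of the first comparison were lost when MHCC97L replicate 3 or any MHCC97L-Src library was left out (adjusted p up to 0.189), and both of the second when MHCC97L replicate 3 or any MHCC97L-Oxa library was left out (adjusted p up to 0.310). They were kept without MHCC97L replicate 1 or 2.

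**Figure D5:**
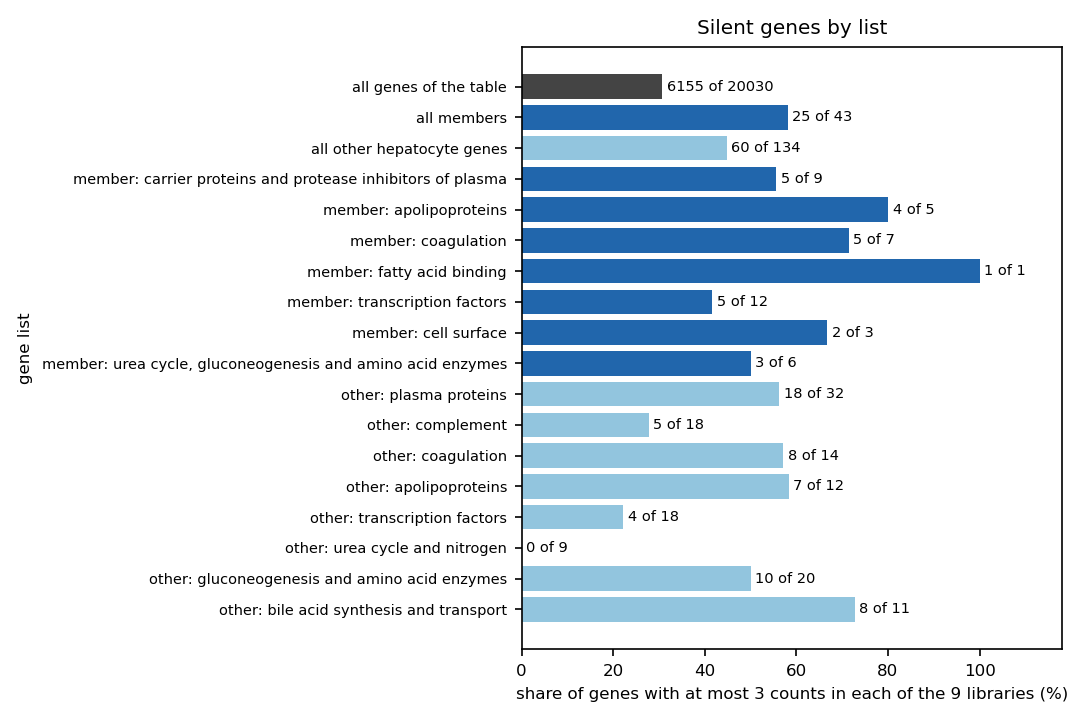
Share of genes with at most 3 counts in each of the 9 libraries (x axis, percent) for all genes, the 43 hepatocyte identity genes by role (dark blue) and the 8 lists of other hepatocyte genes (light blue), with the counts printed beside each bar. The share is 58.1% for the 43 genes, 30.7% for all genes, and 0 of 9 for the other genes of the urea cycle and nitrogen handling.

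Markers of other cell types were read in the same libraries. In the biliary or progenitor list, 4 of 10 genes were above the floor in all 3 libraries of each line, with KRT7 and CD24 the highest, while EPCAM did not exceed 2 counts. The summed level of this list was 3193 to 4340 CPM in the parental line, 1180 to 1300 CPM in MHCC97L-Src and 1977 to 2232 CPM in MHCC97L-Oxa. Nearly all of it was KRT7 and CD24. In the order of the lines above, KRT7 had means of 3076, 810 and 1684 CPM and CD24 of 746, 386 and 375 CPM. The sum therefore does not describe the other genes of the list. By the unadjusted threshold 2 of the 4 tested genes were higher and 1 lower in MHCC97L-Src against MHCC97L, against 24.6% of all tested genes. In MHCC97L-Oxa against MHCC97L 2 of the 4 were higher, against 16.2%. At an adjusted p under 0.05, 1 of the 4 fell and 1 rose in MHCC97L-Src against MHCC97L. KRT7 fell by 1.86 on the log2 scale (SE 0.33, adjusted p = 0.030), and the tight junction gene CLDN4 rose from 1.99 ± 0.622 to 26.5 ± 2.04 CPM (adjusted p = 0.0077). The same was seen against MHCC97L-Oxa, with log2 fold changes of -0.99 for KRT7 (adjusted p = 0.0050) and 2.40 for CLDN4 (adjusted p = 0.00013). The stellate and fibroblast list summed to 615 to 757 CPM in the parental line, 410 to 448 CPM in MHCC97L-Src and 556 to 583 CPM in MHCC97L-Oxa. THY1 made up most of it, at a mean of 521 CPM in the parental line, 326 in MHCC97L-Src and 381 in MHCC97L-Oxa. In MHCC97L-Src against MHCC97L-Oxa, 2 of the 7 tested genes of the list were called, both lower, against 4.64% of all tested genes. These were PDGFRB and DCN, with log2 fold changes of -1.32 ± 0.19 (adjusted p = 0.0039) and -1.89 ± 0.26 (adjusted p = 0.0029). By the unadjusted threshold 3 of the 7 were lower and 1 was higher, against 4.01% of all tested genes. The endothelial list summed to 2.34 to 2.65 CPM in the parental line, 11.9 to 15.6 CPM in MHCC97L-Src and 1.43 to 1.80 CPM in MHCC97L-Oxa. Only PECAM1 and CDH5, 2 of its 8 genes, were above the floor in all 3 libraries of each line, and PECAM1 overlapped between the lines. The sum followed CDH5, which was at a mean of 1.25 CPM in the parental line, 11.9 in MHCC97L-Src and 0.501 in MHCC97L-Oxa. CDH5 was higher in MHCC97L-Src than in MHCC97L by 3.30 (adjusted p = 0.014) and than in MHCC97L-Oxa by 4.61 (adjusted p = 1.7e-05) on the log2 scale. In MHCC97L-Oxa it had 8, 12 and 7 counts. It passed the filter on low counts in that comparison only through MHCC97L-Src, where it was higher. The leukocyte list summed to 50.2 to 82.3 CPM in the parental line, 77.9 to 95.9 CPM in MHCC97L-Src and 149 to 152 CPM in MHCC97L-Oxa. Most of this was CD68, at a mean of 67.3 CPM in the parental line, 82.6 in MHCC97L-Src and 145 in MHCC97L-Oxa. PTPRC, which marks all leukocytes, had no read. CD14 was higher than in MHCC97L in both resistant lines, by 2.58 ± 0.43 (adjusted p = 0.024) in MHCC97L-Src and by 2.24 ± 0.39 (adjusted p = 0.043) in MHCC97L-Oxa on the log2 scale, and CD68 was lower in MHCC97L-Src than in MHCC97L-Oxa, with a log2 fold change of -0.75 (adjusted p = 0.012). None of these marker calls against MHCC97L was kept without MHCC97L replicate 3. Those of KRT7 and CD14 were also lost without any library of the resistant line (adjusted p up to 0.151 and 0.263). That of CDH5 was also lost without MHCC97L-Src replicate 2 or 3 (adjusted p = 0.0535 and 0.0686), while that of CLDN4 was kept in the other fits. The call of CD68 was lost in 4 of the 6 fits without a library (adjusted p up to 0.0763). The part of these markers in the differences of the hepatocyte genes was not tested.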

How the data were processed

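The authors deposited, for 9 poly(A) RNA libraries (3 per line, paired-end and stranded per the labels), raw read counts per gene and FPKM values for 20030 genes. The submitters' processing notes name Trimmomatic 0.36, HISAT2 2.2.1.0 and GRCh38.p12. The counting program is not given in the sources used here. Libraries were grouped by the drug treatment in their label. The 43 genes and all lists were chosen with earlier results of these data known, and the rule for genes named in the text took these genes and, from the other lists, at most 3 genes each of the highest mean FPKM and those past the adjusted threshold of 0.05. EPCAM, PTPRC and NAGS were named after their values were seen.

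Each pair of lines was compared on the deposited counts of its 6 libraries over the whole table by edgeR 4.0.16 (quasi-likelihood test, filterByExpr with a minimum count of 10, TMM, Benjamini-Hochberg adjustment over all tested genes) in R 4.3.3. The SE of a fold change was obtained from it and the F statistic. CPM are counts relative to the library total. Levels between genes were compared on the deposited FPKM only. The GC content and length of the longest GENCODE release 29 transcript were matched for 19343 genes, and splines with 5 degrees of freedom for each gave the correction, as offsets. Alternatives were DESeq2 1.42.0, no filter, one fit of all 9 libraries, a block for the replicate number, limma 3.58.1 on log2(FPKM + 1) and log2(FPKM + 0.1), other limits for silence, and leaving out each library. Scripts were tested on simulated counts. Tables and figures were made with pandas 2.3.3, matplotlib 3.10.9 and SciPy 1.17.1 under Python 3.11.15. Promoter sequences are RefSeq's. Annotation columns with pathway terms were not used. Some items are not reported here.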

Additional observations from a re-analysis of the deposited data

Results flagged for a closer look

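AMBP differed between the resistant lines, with a log2 fold change of 2.32 for MHCC97L-Src over MHCC97L-Oxa (SE 0.56, adjusted p = 0.044 by edgeR's quasi-likelihood test). It stands out because the resistant lines lay on opposite sides of MHCC97L, at 1.06 ± 0.52 and -1.28 ± 0.50 on the log2 scale, and neither of these passed an adjusted p under 0.05 (adjusted p = 0.203 and 0.209). The counts behind it are 29, 29 and 12 in MHCC97L-Src, 14, 11 and 12 in MHCC97L and 8, 4 and 3 in MHCC97L-Oxa. MHCC97L-Src replicate 3 lay within the MHCC97L range, and with the correction for GC content and length the value over MHCC97L was 0.32 (adjusted p = 0.700). AMBP passed the filter on low counts only through MHCC97L-Src in the comparison of the resistant lines, and the call was lost in 5 of the 6 fits that left out a library (adjusted p = 0.063 to 0.212). A fit of all 9 libraries gave 2.33 with an adjusted p = 0.137.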

How the results depend on the processing

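In MHCC97L-Src against MHCC97L, the number of the 43 genes called was 0, and was 2 with DESeq2, 1 without the filter, 3 with all 9 libraries in one fit and 0 to 3 when a library was left out. At the unadjusted threshold it was 3, and was 0 with the GC and length correction, 0 with correction and block, 1 on log2(FPKM + 1) and 1 to 5 when a library was left out. Over all genes 256 were called, against 2114 with DESeq2, 702 without the filter, 1089 with the correction, 1956 with all 9 libraries and 22 to 3419 when a library was left out. In MHCC97L-Oxa against MHCC97L, 1 of the 43 was called, 0 on both FPKM scales and 0 to 3 when a library was left out. At the unadjusted threshold 2 became 1 with DESeq2, 1 without the filter, 0 on log2(FPKM + 1) and 1 to 2 when a library was left out. Over all genes 115 became 893 with DESeq2, 1676 with the correction, 495 with all 9 libraries, 252 and 256 on the FPKM scales and 2 to 2705 when a library was left out. In MHCC97L-Src against MHCC97L-Oxa, 1 of the 43 became 2 with DESeq2, 2 with the correction, 0 with all 9 libraries and 0 to 4 when a library was left out. At the unadjusted threshold 1 became 2 without the filter and 0 on log2(FPKM + 1). Over all genes 556 became 839 with DESeq2, 86 with all 9 libraries and 167 to 1617 when a library was left out. The share of calls that were higher was 67.2%, 80.9% and 45.7% in the 3 comparisons and 37.6%, 31.9% and 34.2% with the correction. The 25 silent genes became 15 at a limit of 0 counts and 15 by an FPKM listed at 0. At a limit of 10 counts the number rose, as only HNF4A, with up to 13 counts, exceeded it among the 11 genes too low for a test. The cause of these changes was not tested.

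The deviations of libraries with the same replicate number from the mean of their line had correlations of -0.631 to 0.417. With only 3 libraries per line these values cannot decide whether the numbers pair the libraries, and the labels do not say. With the replicate number as a block, 988 genes were called in MHCC97L-Src against MHCC97L, and 136 with block and correction. In MHCC97L-Oxa against MHCC97L, 1 of the 43 passed the unadjusted threshold with the block, and 1025 genes were called with block and correction. In MHCC97L-Src against MHCC97L-Oxa, 2 of the 43 were called with block and correction. Over the 19 fold changes of the hepatocyte genes and their alternatives, 256 values kept their side of the threshold, 17 came past it and 12 lost it. At 3 counts or fewer per library, differences were not detectable.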

Other observations

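The resistant lines differed from each other in other liver plasma proteins and enzymes. By edgeR's quasi-likelihood test, 4 of the 51 tested genes of the other hepatocyte lists were higher in MHCC97L-Src than in MHCC97L-Oxa and 5 were lower, against 4.64% of all tested genes in both directions together. Angiotensinogen (AGT) was higher by 1.43 ± 0.25 (SE) on the log2 scale (adjusted p = 0.010), the glycoprotein LRG1 by 1.37 ± 0.25 (adjusted p = 0.013), MLXIPL by 1.18 ± 0.14 (adjusted p = 0.0013) and C3 by 0.51 ± 0.10 (adjusted p = 0.016). The other 5 were lower in MHCC97L-Src. The copper carrier ceruloplasmin (CP) had 34, 20 and 23 counts in the MHCC97L-Src libraries and 127, 130 and 210 in those of MHCC97L-Oxa, a log2 fold change of -2.50 ± 0.32 (adjusted p = 0.0019). The acute-phase inhibitor SERPINA3 had a log2 fold change of -1.996 ± 0.39 (adjusted p = 0.017). Its 9, 10 and 15 counts in the MHCC97L-Src libraries would not have passed the filter on low counts without MHCC97L-Oxa, where it was higher. HPD, an enzyme of tyrosine breakdown, had 524, 579 and 469 counts in the MHCC97L-Src libraries and 1462, 1393 and 1587 in those of MHCC97L-Oxa, a log2 fold change of -1.38 ± 0.16 (adjusted p = 0.00099). The complement proteases C1R and C1S had log2 fold changes of -0.75 ± 0.11 (adjusted p = 0.0047) and -1.04 ± 0.23 (adjusted p = 0.033). The calls of CP, C1R, MLXIPL and HPD were kept in each of the 6 fits without a library. Those of AGT (adjusted p up to 0.082), LRG1 (0.085), SERPINA3 (0.088), C1S (0.125) and C3 (0.147) were lost in at least 1, namely without MHCC97L-Oxa replicate 2 for all 5, and for some of them also without MHCC97L-Oxa replicate 1 or 3 or MHCC97L-Src replicate 1.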
